A study of Mus musculus with 9 samples.

Results

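The genes described here are 4 sodium-dependent phosphate transporters (Slc34a1, Slc34a2, Slc20a1 and Slc20a2) and 3 alkaline phosphatases (Alpi, Akp3 and Alpl) of the mouse. Every probe set annotated to exactly 1 of these 7 symbols was taken, whatever its values. That gave 10 probe sets of the 45037 on the array that are not array controls, and 7 of the 18193 genes named by a probe set with 1 gene. All 10 passed the filter on low values. RNA was measured on 9 Affymetrix Mouse Genome 430 2.0 arrays, 1 array for each of 9 adult male mice aged 6 to 8 weeks. The 3 groups of 3 mice were control jejunum (Gata4loxP/+VilCre), mutant jejunum (Gata4loxP/-VilCre) and control ileum (Gata4loxP/+VilCre), and control jejunum and control ileum came from different mice. All mice thus carried villin-Cre, which drives recombination in the gut epithelium but not in muscle, stroma or immune cells, and all carried 1 loxP-flanked copy of Gata4. Controls had a wild-type second copy and mutants lacked it, by these genotypes in all cells and not only in the epithelium. Where Cre recombined the loxP-flanked copy, control cells thus kept the wild-type copy alone. Jejunal pieces came from 10 cm beyond the pylorus and ileal ones from 1 cm before the cecum; the sources used here do not say which layers of the wall they held.

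Dietary phosphate crosses the brush border membrane of the enterocyte through type II sodium-phosphate cotransporters, which use the sodium gradient to move phosphate into the cell. Slc34a2 (NaPi-IIb) is the main carrier of this kind in the small intestine, and in the mouse it is known for its high level in the ileum. Slc34a1 (NaPi-IIa) does the same work in the renal proximal tubule, while Slc20a1 (PiT-1) and Slc20a2 (PiT-2) are type III carriers found in most tissues. Alkaline phosphatases free phosphate from organic esters at the cell surface. Alpi and Akp3 encode enzymes of the intestinal brush border, where they also detoxify bacterial lipopolysaccharide, and Alpl encodes the tissue-nonspecific enzyme of bone, liver and kidney.

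The promoters of the 3 genes that were called in at least 1 comparison are shown because these genes include the transporter that moved upward and both intestinal phosphatases. Each is the RefSeq window of 300 bases, 250 before and 50 after the annotated start, in the GRCm38.p6 assembly, read 5′ to 3′ on the gene's own strand. The window of Slc34a2 is chr5:53049103-53049402 on the plus strand, that of Alpi is chr1:87101557-87101856 on the minus strand and that of Akp3 is chr1:87124704-87125003 on the plus strand. Capitals mark the longest run of bases that Alpi and Akp3 share, TTCAGTTCACAGGG, and in Alpi also the HNF4 word CAAAGTCCA.
Slc34a2: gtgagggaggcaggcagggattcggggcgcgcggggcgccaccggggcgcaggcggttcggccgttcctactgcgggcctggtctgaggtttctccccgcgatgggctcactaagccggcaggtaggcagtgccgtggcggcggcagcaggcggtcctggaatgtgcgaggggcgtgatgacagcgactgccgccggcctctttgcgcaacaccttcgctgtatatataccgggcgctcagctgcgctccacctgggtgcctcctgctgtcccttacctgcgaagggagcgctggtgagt
Alpi: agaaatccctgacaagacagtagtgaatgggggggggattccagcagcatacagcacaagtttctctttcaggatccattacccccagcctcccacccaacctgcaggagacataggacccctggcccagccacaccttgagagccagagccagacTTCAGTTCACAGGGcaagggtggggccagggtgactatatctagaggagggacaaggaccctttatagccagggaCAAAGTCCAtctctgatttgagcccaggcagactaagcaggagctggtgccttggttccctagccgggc
Akp3: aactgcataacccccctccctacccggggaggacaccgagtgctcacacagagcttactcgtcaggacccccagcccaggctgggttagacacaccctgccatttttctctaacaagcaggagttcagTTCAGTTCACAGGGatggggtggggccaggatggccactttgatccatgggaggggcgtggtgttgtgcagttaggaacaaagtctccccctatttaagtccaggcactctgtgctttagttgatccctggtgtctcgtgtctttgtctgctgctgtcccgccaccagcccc
The shared run of 14 bases starts 94 bases before the start of Alpi and 122 bases before that of Akp3, and the aligned windows of these neighbouring genes were identical at 53.5% of alignment columns. Alpi lies between Alppl2, another alkaline phosphatase gene, and Akp3 in the order of protein-coding genes on chromosome 1. The Slc34a2 window aligned with that of Alpi at 43.4% identity and with that of Akp3 at 46.2%, and it shared no run over 10 bases with either. It is also the richest in CpG of these 3, with 30 CpG pairs and 68.7% G + C, against 1 CpG pair and 56.3% in Alpi and 6 CpG pairs and 57% in Akp3. GATA words were searched on both strands of all windows because the mutation removes a GATA factor: the word AGATAA, the word AGATAG, the word TGATAA and the word TGATAG. None of the 8 windows of the 6 members in the promoter table held one, while 29.8% of all 32851 windows of this length did. The HNF4 word CAAAGTCCA, which binds a nuclear receptor of the enterocyte, occurred in Alpi alone of these 8 windows, starting 19 bases before the start, and in 0.475% of all windows. These are matches of letters in a short window and say nothing of binding, here or elsewhere. Slc20a2 is the member not matched in the promoter table.

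Levels are given as quantile-normalized log2(intensity + 16), so a difference of 1 is a doubling for a bright probe set and understates the change of a dim one. They are compared within a probe set and never between probe sets. The ileum arrays were dimmer before normalization, with trimmed mean intensities of 96.83 to 121.7 against 147.5 to 179.8 on the jejunum arrays. Array brightness and gut segment cannot be told apart. Left unscaled, the median of all tested probe sets was -0.40 for control ileum minus control jejunum and 0.41 for mutant jejunum minus control ileum. Ileal values from unscaled arrays are also given relative to this median. The shift was not the same for all probe sets. Without scaling, the ileal difference went from -1.81 to -2.01 for the dim Akp3 and from 0.37 to -0.16 for the bright Hnf4a. Values relative to the median thus correct for it only roughly. Mutant jejunum array 3 stood apart from the other arrays on the second principal component, so the mutant differences of Slc34a2, Slc20a2, Alpi and Akp3 are also given without it. Its highest correlation with an array of its own group was 0.9704 over probe sets, against 0.9787 to 0.9832 for the other 8 arrays. The brighter Gata4 probe set (1418863_at) read 9.49 to 9.57 in control jejunum, 9.38 to 9.61 in mutant jejunum and 5.20 to 5.64 in control ileum. The sources used here do not place it relative to the deleted part of the gene, so it checks nothing about the deletion.

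**Figure D1:**
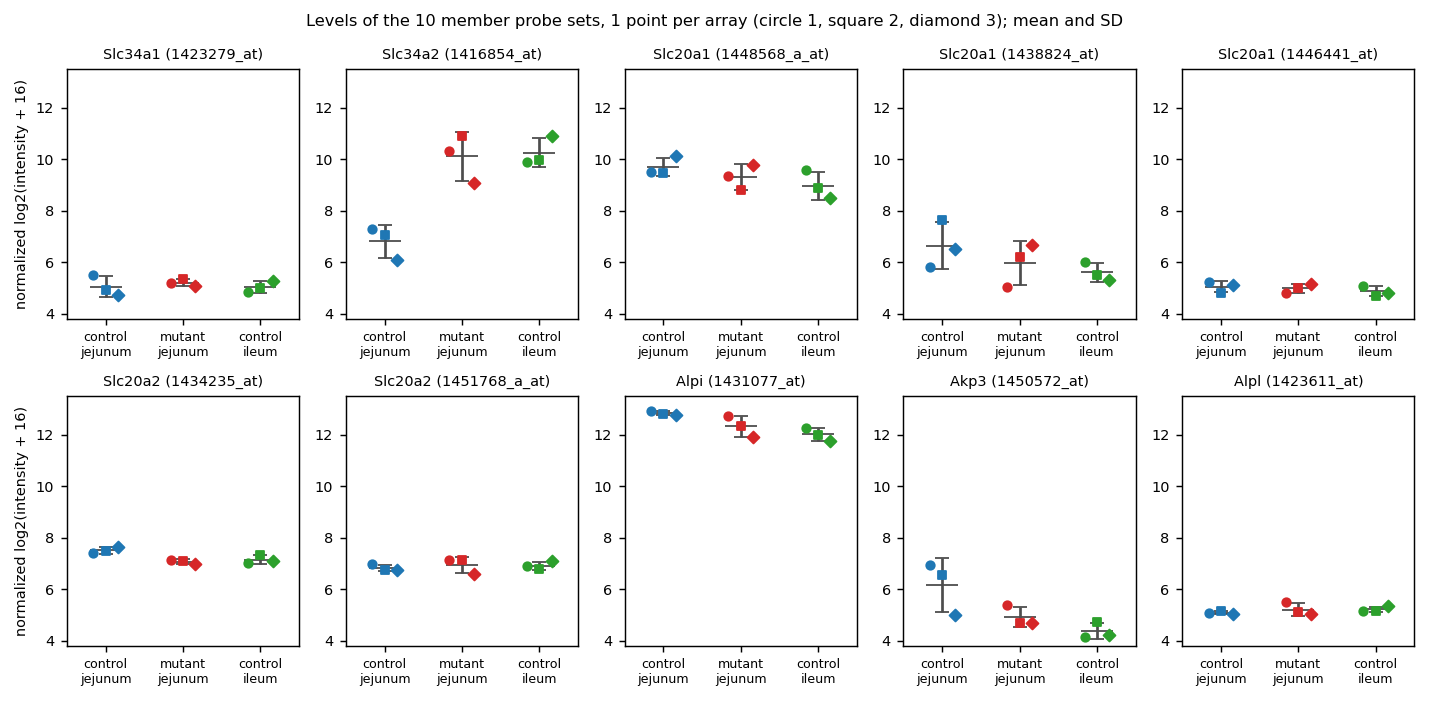
Level of each of the 10 member probe sets on every array, as normalized log2(intensity + 16), with 1 point per array (circle, square and diamond for arrays 1, 2 and 3 of a group) and the mean ± SD of each group of 3. Slc34a2 is the member whose mutant jejunum and control ileum arrays (9.09 to 10.93) all lie above its control jejunum arrays (6.08 to 7.30), while every ileal array of Alpi and Akp3 lies below every control jejunum array.

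Slc34a2, the intestinal phosphate cotransporter, was low in control jejunum and high in both mutant jejunum and control ileum. Its probe set 1416854_at read 7.30, 7.07 and 6.08 in the 3 control jejuna. It read 10.34, 10.93 and 9.09 in the 3 mutant jejuna, and 9.88, 9.97 and 10.90 in the 3 control ilea. All mutant and all ileal arrays lay above all control jejunum arrays, and the mutant and ileal arrays overlapped. The same ordering stood in the deposited intensities, which ran from 59.5 to 162 in control jejunum, from 533 to 2449 in mutant jejunum and from 618 to 1500 in control ileum. In mutant jejunum the mean level rose from 6.82 ± 0.64 to 10.12 ± 0.94 (SD, n = 3 each), a 9.84-fold difference. The log2 difference was 3.30 with a standard error of 0.45 and a 95% interval of 2.30 to 4.30 (limma, adjusted p = 0.00271). It was the only member called in this comparison, 1 of 10 probe sets, where 3.56% of all tested probe sets were called and 1.74% were called higher. The call was made under all 20 alternative settings, with differences of 2.83 to 3.84 and adjusted p from 0.000182 to 0.0146. The largest adjusted p came from leaving out control jejunum array 3, the lowest of all arrays for this gene, which gave 2.92. Without mutant jejunum array 3, the lowest mutant array, the difference was 3.82 (limma, adjusted p = 0.000799).

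Between the control segments the level of Slc34a2 was 3.44 higher on the log2 scale in ileum than in jejunum, a 10.8-fold difference (95% interval 2.44 to 4.43; limma, adjusted p = 0.000591). It was called under all 20 alternatives, between 2.91 and 3.67. The mutant jejunum and the control ileum differed by -0.14 with a 95% interval of -1.14 to 0.86 (limma, adjusted p = 0.918). That interval leaves room for a difference of more than a doubling in the direction of the ileum, so the comparison does not show that the levels were alike. The comparisons of mutant jejunum and of control ileum share the 3 control jejunum arrays, so a low reading there enters both. In these bulk samples, fewer cells of a type and less RNA per cell cannot be told apart.

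Slc34a1, the renal cotransporter, stayed near the filter level of 4.95 on all arrays. Its probe set 1423279_at read 5.51, 4.93 and 4.71 in control jejunum, 5.20, 5.33 and 5.08 in mutant jejunum, and 4.84, 4.98 and 5.28 in control ileum. The groups overlapped in each comparison. The differences were 0.15 in mutant jejunum (95% interval -0.34 to 0.64; limma, adjusted p = 0.795) and -0.02 in control ileum (95% interval -0.51 to 0.47; limma, adjusted p = 0.967). The other renal type II gene, Slc34a3, was dim as well, at 4.68 to 5.27 over the 9 arrays. It was not called in mutant jejunum (-0.06, adjusted p = 0.922) or in control ileum (-0.05, adjusted p = 0.889). The 95% interval of its mutant difference ran from -0.49 to 0.37.

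Slc20a1, a type III carrier that also serves as a retroviral receptor, was not called in any comparison by any of its 3 probe sets. The brightest, 1448568_a_at, read 9.50, 9.48 and 10.13 in control jejunum, 9.34, 8.81 and 9.79 in mutant jejunum, and 9.57, 8.88 and 8.48 in control ileum. Control jejunum array 3 was the highest and control ileum array 3 the lowest, and the groups overlapped. Against control jejunum the difference was -0.39 in mutant jejunum (95% interval -1.06 to 0.28; limma, adjusted p = 0.568) and -0.73 in control ileum (95% interval -1.40 to -0.06; limma, adjusted p = 0.128). The ileal difference became a call when control ileum array 1 was left out (-1.03, adjusted p = 0.0439) and when arrays were left unscaled (-1.26, adjusted p = 0.00347, or -0.86 relative to the median of all probe sets). The second probe set, 1438824_at, ranged over 5.79 to 7.62 in control jejunum, 5.03 to 6.68 in mutant jejunum and 5.30 to 6.00 in control ileum. Its differences from control jejunum were -0.66 and -1.03, with adjusted p of 0.527 and 0.163. The dimmest one, 1446441_at, stayed between 4.69 and 5.22 on all arrays, and its differences were -0.07 and -0.19 (adjusted p = 0.903 and 0.545).

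Slc20a2, the other type III carrier, had 2 probe sets that did not move alike. The first, 1434235_at, read 7.40, 7.47 and 7.64 in control jejunum. It read 7.15, 7.08 and 6.97 in mutant jejunum and 7.01, 7.33 and 7.10 in control ileum, so the control jejunum arrays lay above all others. The differences were small, -0.44 in mutant jejunum (95% interval -0.74 to -0.13; limma, adjusted p = 0.124) and -0.36 in control ileum (95% interval -0.66 to -0.06; limma, adjusted p = 0.102). The mutant difference was not called under any of the 20 alternatives, and the ileal one was called only with unscaled arrays (-0.81, adjusted p = 0.00758, or -0.41 relative to the median). Without mutant jejunum array 3 the mutant difference was -0.39 (adjusted p = 0.201). The second, 1451768_a_at, read 6.74 to 6.96 in control jejunum, 6.58 to 7.13 in mutant jejunum and 6.76 to 7.08 in control ileum. Its groups overlapped and its differences were 0.12 (95% interval -0.26 to 0.51; adjusted p = 0.789) and 0.10 (adjusted p = 0.746).

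**Figure D2:**
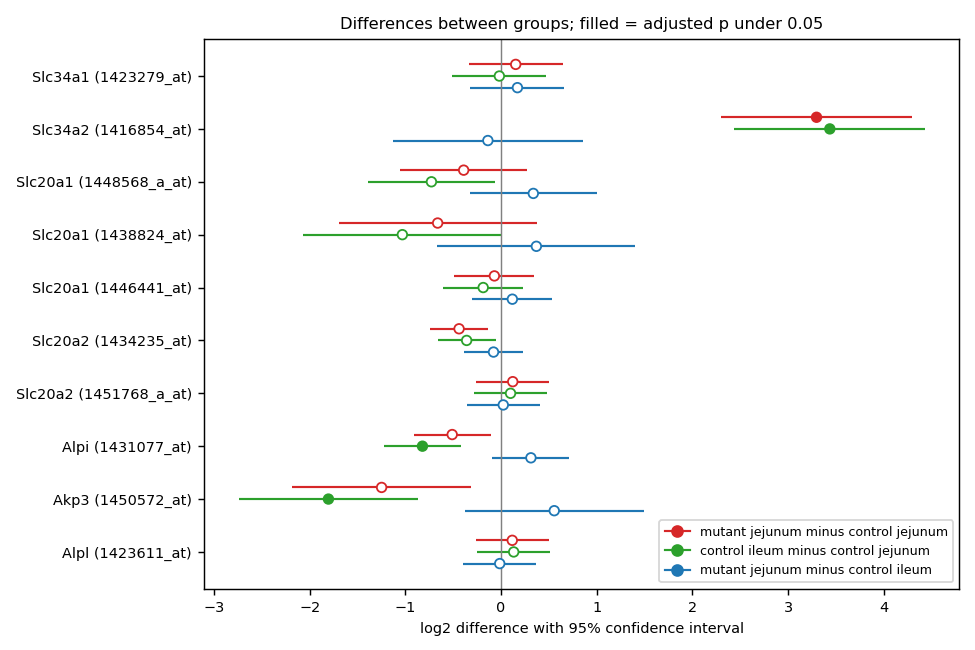
Difference between group means for each member probe set on the log2 scale, with its 95% confidence interval from the limma fit, for mutant jejunum minus control jejunum, control ileum minus control jejunum and mutant jejunum minus control ileum; filled points have an adjusted p under 0.05. Slc34a2 stands at 3.30 and 3.44 in the first 2 comparisons, Alpi and Akp3 are filled at -0.82 and -1.81 for control ileum, and no member is filled for mutant jejunum minus control ileum.

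Alpi, the main intestinal alkaline phosphatase gene of the brush border, was lower in ileum than in jejunum of control mice, and the mutant jejunum lay between them. Its probe set 1431077_at read 12.93, 12.82 and 12.76 in control jejunum. It read 12.73, 12.34 and 11.92 in mutant jejunum, and 12.28, 12.00 and 11.77 in control ileum. The ileal and the mutant arrays all lay below the control jejunum arrays, and mutant and ileal arrays overlapped. In ileum the level fell by 0.82 on the log2 scale, a 1.77-fold difference (standard error 0.18; 95% interval -1.22 to -0.42; limma, adjusted p = 0.0116), and this was called under all 20 alternatives, between -1.30 and -0.68. The mutant difference was -0.51 (95% interval -0.91 to -0.11; limma, adjusted p = 0.179), short of a call although the arrays did not overlap. It was called when mutant jejunum array 1 was left out (-0.72, adjusted p = 0.0439) and when the replicate number was taken as a block (adjusted p = 0.0498). Without mutant jejunum array 3, the lowest of the mutant arrays, it was -0.30 (adjusted p = 0.334). The mutant level was 0.31 above that of control ileum (95% interval -0.09 to 0.71; limma, adjusted p = 0.446).

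Akp3, the second gene for a brush border alkaline phosphatase, was lower in control ileum as well, from a dim and scattered start. Its probe set 1450572_at read 6.95, 6.57 and 4.98 in control jejunum. It read 5.37, 4.69 and 4.69 in mutant jejunum, and 4.14, 4.72 and 4.22 in control ileum. Control jejunum array 3 fell within the range of the mutant arrays, while all ileal arrays lay below all control jejunum arrays. The deposited intensities were 123, 86.8 and 18.3 in control jejunum, 28.2, 11.5 and 10.1 in mutant jejunum, and 1.02, 8.38 and 2.22 in control ileum. Akp3 passed the filter level of 4.95 on 3 control jejunum arrays, 1 mutant array and 0 ileal arrays, so it was tested through the group where it is high, and its ileal reading is not above background. Its measured level in ileum fell by 1.81 on the log2 scale (standard error 0.43; 95% interval -2.74 to -0.87; limma, adjusted p = 0.0156), which gives no exact fold. This call was lost without control jejunum array 1 (-1.40, adjusted p = 0.0533), without control jejunum array 2 (-1.60, adjusted p = 0.0666) and without control ileum array 1 (-1.73, with an adjusted p just above the threshold). Its size depended on the pseudocount, at -3.46 with a pseudocount of 1 and -0.86 with 64, where the adjusted p was 0.0119 and 0.0222. In mutant jejunum the difference was -1.25 (95% interval -2.19 to -0.31; limma, adjusted p = 0.157). It became a call when control jejunum array 3 was left out (-1.83, adjusted p = 0.0102), and it was -1.13 without mutant jejunum array 3 (adjusted p = 0.268). Against control ileum the mutant level differed by 0.56 (95% interval -0.38 to 1.49; adjusted p = 0.572).

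Alpl, the tissue-nonspecific alkaline phosphatase, was dim and showed no call. Its probe set 1423611_at read 5.07, 5.16 and 5.02 in control jejunum, 5.49, 5.09 and 5.02 in mutant jejunum, and 5.17, 5.15 and 5.34 in control ileum. The differences from control jejunum were 0.12 in mutant jejunum (95% interval -0.26 to 0.50; limma, adjusted p = 0.798) and 0.13 in control ileum (adjusted p = 0.651). The neighbouring phosphatase gene Alppl2 (1450636_s_at) read 5.15 to 5.77 over all arrays and was not called in mutant jejunum (-0.17, adjusted p = 0.723) or in control ileum (-0.19, adjusted p = 0.570). The genes Alpi, Akp3 and Alppl2 are close paralogs, and whether a probe set of one also binds the RNA of another was not tested.

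**Figure D3:**
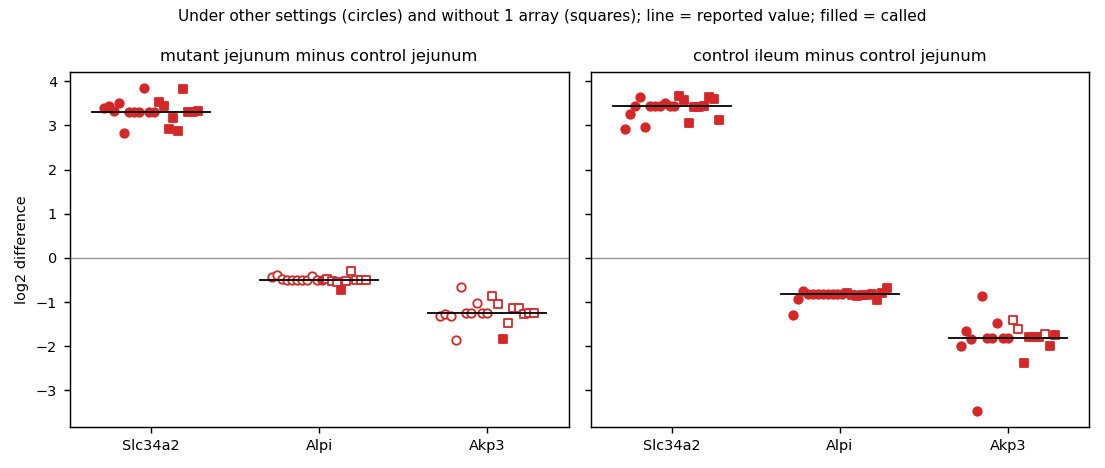
Log2 difference of Slc34a2, Alpi and Akp3 from control jejunum under each alternative setting (circles) and with 1 array left out (squares); the line is the reported value and filled symbols are calls. All symbols of Slc34a2 are filled in both comparisons and those of Alpi in control ileum, whereas Akp3 in control ileum lost its call when control jejunum array 1, control jejunum array 2 or control ileum array 1 was left out, and both phosphatases in mutant jejunum were mostly uncalled.

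In mutant jejunum 1 of the 10 member probe sets was called higher and 0 lower, where 1.82% of all tested were called lower, and 3 had groups that did not overlap (Slc34a2, 1 probe set of Slc20a2, and Alpi), as did 22.5% of all tested probe sets. The median difference of the 10 was -0.23, against 0.00 over all tested probe sets. In control ileum 1 of the 10 was called higher and 2 lower (Alpi, and Akp3 with the limit given above), where 16.2% of all tested probe sets were called, 8.36% higher and 7.86% lower. There 4 of the 10 did not overlap with control jejunum, against 37.4% of all tested. The median was -0.27, against 0.01 over all tested. Between mutant jejunum and control ileum limma called 0 of the 10, and 0 of the 10 had an unadjusted p under 0.05, where 2.65% of all tested were called, 1.39% higher and 1.27% lower, and 20.6% did not overlap. Scaling bears on these background splits. The share of calls that were higher was 48.9% in mutant jejunum and 62% with median-centred arrays, and it was 51.5% in control ileum, 36.7% with median-centred arrays and 5.8% with unscaled arrays. For mutant jejunum against control ileum it was 52.2%, and 79.1% and 98.3% under those same settings. Relative to the unscaled median, the ileal differences on unscaled arrays were 3.31 for Slc34a2, -0.90 for Alpi and -1.61 for Akp3.

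The genes most like each called member in pattern were taken as the 3 with the highest Pearson correlation over the 9 arrays among 13829 other genes, as a description only, since the arrays share their groups. For Slc34a2 these were Ttll12 (0.983), Ginm1 (0.977) and Atp6v0a2 (0.974). Their own ileal differences were far smaller than that of Slc34a2, at 0.39, 0.47 and 0.43. For Alpi they were Igsf23 (0.981), Polg2 (0.980) and Scamp5 (0.974), with ileal differences of -1.33, -1.02 and -1.21. For Akp3 they were Slc22a7 (0.955), Pag1 (0.941) and Prr14l (0.936), with ileal differences of -1.18, -0.33 and -0.20, none of them called.

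Other genes of phosphate transport were counted by the brightest tested probe set of each gene. Of 6 tested, 1 was lower in mutant jejunum and 2 in control ileum, with none higher, and the medians were -0.24 and -0.13. Among all tested probe sets 3.56% were called in mutant jejunum and 16.2% in control ileum. No list was tested as a set. Slc37a4, the glucose-6-phosphate transporter of the endoplasmic reticulum, read 10.10, 10.17 and 10.35 in control jejunum, 9.63, 9.14 and 8.89 in mutant jejunum, and 8.54, 8.18 and 7.89 in control ileum. The groups formed steps with no overlap. It fell by 2.00 in control ileum (limma, adjusted p = 0.000105) and by 0.98 in mutant jejunum (adjusted p = 0.0257), and mutant jejunum was 1.02 above control ileum (adjusted p = 0.0280). The mutant call was lost without control jejunum array 2 (adjusted p = 0.0881) or 3 (-0.91, adjusted p = 0.115), without mutant jejunum array 2 (-0.94, adjusted p = 0.0959) or 3 (-0.82, adjusted p = 0.0650), and with unscaled (-0.94) or median-centred (-0.90) arrays. The call between mutant jejunum and control ileum was lost without mutant jejunum array 1 (0.81, adjusted p = 0.0863) or 2 (1.05, adjusted p = 0.0640), without control ileum array 2 (1.01, adjusted p = 0.101) or 3 (0.87, adjusted p = 0.0760), and in a fit of these groups alone. Its relative Slc37a2 fell by 1.11 in control ileum (adjusted p = 0.0342), a call lost under 8 of 19 alternatives. Among those were leaving out control jejunum array 1 (-0.97) or 2 (-1.04) and control ileum array 1 (-0.83) or 3 (-1.14). Xpr1, the phosphate exporter, was not called (-0.30 in mutant jejunum, adjusted p = 0.277, and -0.06 in control ileum, adjusted p = 0.784), nor was Slc25a3, the mitochondrial phosphate carrier (-0.12 and -0.19, adjusted p = 0.528 and 0.162).

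The list of scaffolds that hold sodium-phosphate carriers in the brush border also held Slc9a3 and Myo6, which are not scaffolds. It showed 0 of 7 calls in mutant jejunum and 1 higher in control ileum. The shares called over all tested probe sets were 3.56% and 16.2%. Slc9a3r1 (NHERF1) differed by -0.01 in mutant jejunum (95% interval -0.18 to 0.16) and Pdzk1 by 0.08 (95% interval -0.37 to 0.53). Ezr, which links these scaffolds to actin, rose by 0.33 in control ileum (limma, adjusted p = 0.0265). That call was lost when any 1 of the 6 control arrays was left out (0.30 to 0.35). With unscaled arrays the value was -0.16, which is 0.24 relative to the median of all probe sets.

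Genes of the hormones that set phosphate uptake had 1 call of 11, higher, in each of the comparisons with control jejunum. Over all tested probe sets 3.56% were called in mutant jejunum and 16.2% in control ileum. The gene called was Galnt3, which glycosylates the phosphate-lowering hormone FGF23. It read 7.91, 8.03 and 8.24 in control jejunum, 8.53, 8.64 and 9.10 in mutant jejunum, and 9.02, 9.07 and 8.99 in control ileum. It rose by 0.96 in control ileum (limma, adjusted p = 0.00234, called for 2 of 2 probe sets; 0.44 and not called with unscaled arrays, or 0.84 relative to their median) and by 0.70 in mutant jejunum (adjusted p = 0.0394, called for 1 of 2). The mutant call was lost under 12 of 20 alternatives, among them leaving out any 1 array other than mutant jejunum array 1, with adjusted p up to 0.137. Vdr, the vitamin D receptor, through which calcitriol raises intestinal phosphate uptake, read 10.29, 10.66 and 10.42 in control jejunum and 10.07, 9.93 and 9.50 in mutant jejunum. Its arrays did not overlap, but the difference of -0.62 was not called (95% interval -0.97 to -0.27; limma, adjusted p = 0.0587), and in control ileum it was -0.47 (adjusted p = 0.0661, with the other of its 2 probe sets called). Transcripts of Fgf23, Kl, Cyp27b1 and Cyp24a1 did not pass the filter.

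Among 10 tested genes that act on pyrophosphate or phosphate monoesters, 0 were called in mutant jejunum and 2 were called lower in control ileum. Called shares over all tested probe sets were 3.56% and 16.2%, with 7.86% lower in control ileum. Enpp3, an ectoenzyme that splits nucleotides and their pyrophosphate bonds, read 12.24, 12.06 and 12.25 in control jejunum, 11.29, 9.76 and 7.24 in mutant jejunum, and 6.36, 5.94 and 7.41 in control ileum. The mutant arrays lay below control jejunum and were widely spread, and the lowest fell within the ileal range. It fell by 5.62 in control ileum (limma, adjusted p = 0.000718), the largest difference of this list. The mutant difference of -2.75 was not called for this brightest probe set (adjusted p = 0.0811), while 3 of its 5 tested probe sets were. Ppa1, the cytosolic pyrophosphatase, fell by 1.19 in control ileum (adjusted p = 0.00738) and differed by -0.86 in mutant jejunum (adjusted p = 0.0846). Ank, a pyrophosphate exporter, differed by 0.01 in mutant jejunum and by -0.13 in control ileum and was not called. Acp1 and Acp2 were not called by their brightest probe sets. In control ileum 1 of 5 tested probe sets of Acp1 and 1 of 3 of Acp2 were called.

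**Figure D4:**
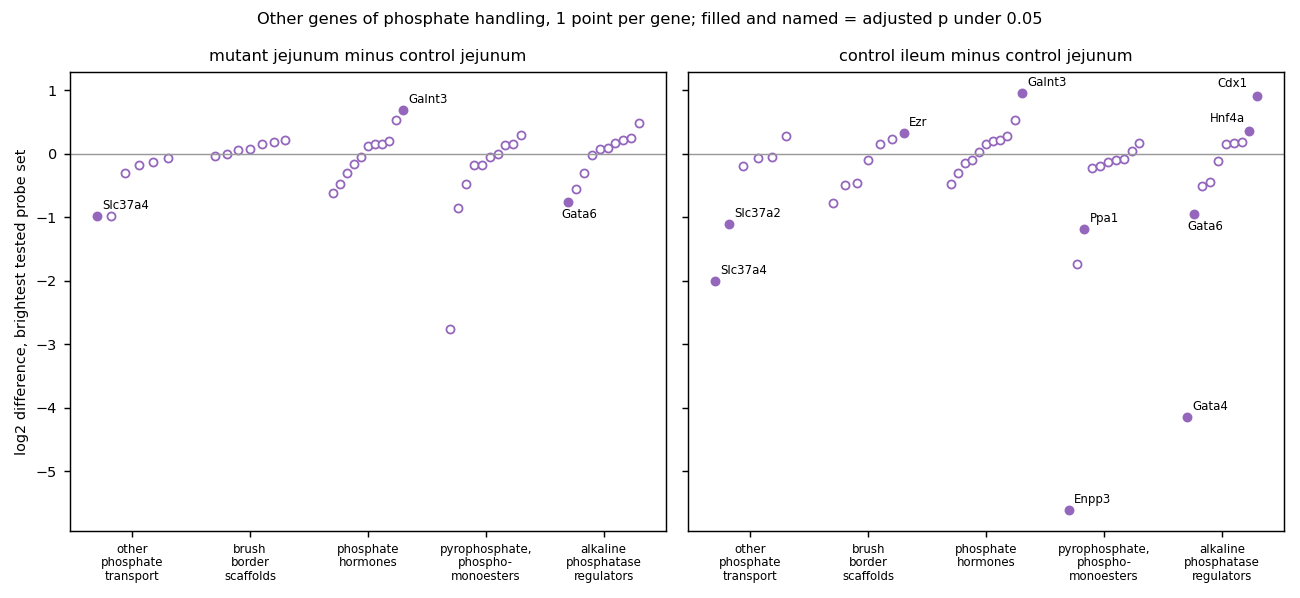
Log2 difference from control jejunum of the brightest tested probe set of each gene in the 5 lists, with 1 point per gene, for mutant jejunum and for control ileum; filled and named points have an adjusted p under 0.05. In mutant jejunum 3 genes are named (Slc37a4, Galnt3 and Gata6), and in control ileum the lowest points are Enpp3 at -5.62 and Gata4 at -4.15.

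The list of transcription factors known to act on intestinal alkaline phosphatase genes or their GATA partners had 1 lower of 10 in mutant jejunum, and 2 higher and 2 lower in control ileum. Across all tested probe sets 3.56% and 16.2% were called in these comparisons. Cdx1, a homeobox factor of the gut epithelium that activates intestinal alkaline phosphatase, rose by 0.92 in control ileum (limma, adjusted p = 0.00121; 0.37 and not called with unscaled arrays, or 0.77 relative to their median) and differed by 0.49 in mutant jejunum (adjusted p = 0.0836). Hnf4a rose by 0.37 in control ileum (adjusted p = 0.0101, called for 3 of 4 probe sets), with -0.16 on unscaled arrays, which is 0.24 relative to their median, and no call on median-centred ones. Gata6, the second GATA factor of the gut, fell by 0.95 in control ileum (adjusted p = 0.00137, called for 2 of 3 probe sets) and by 0.75 in mutant jejunum (adjusted p = 0.0172, called for 1 of 3). The mutant call of Gata6 was lost without control jejunum array 2 (-0.77) or 3 (-0.74), without mutant jejunum array 2 (-0.68), and with unscaled (-0.70) or median-centred (-0.66) arrays. Gata4 fell by 4.15 in control ileum (adjusted p = 5.2e-08). Klf4 and Cdx2, also regulators of Alpi, differed by 0.08 and 0.09 in mutant jejunum and by 0.15 and 0.17 in control ileum, with no call. Thra, also on this list, was not called by its brightest probe set (-0.30 in mutant jejunum and -0.45 in control ileum). However, 1 of its 3 tested probe sets was called in each of these comparisons.

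Markers of cell types were read beside these results. Their counts of calls are to be read beside the shares over all tested probe sets, 3.56% in mutant jejunum and 16.2% in control ileum. Vil1, a defining marker of the enterocyte brush border, read 12.64 to 12.99 on all arrays and was not called, and 0 of 7 enterocyte markers were called in mutant jejunum. In control ileum 2 of the 7 were called higher (Epcam at 0.36 and Cdh1 at 0.38; with unscaled arrays -0.06 and -0.14, which are 0.34 and 0.26 relative to the median of all probe sets) and 1 lower (Apoa4, an apolipoprotein, at -3.50). The mean level of the enterocyte markers per array was 12.79 to 12.84 in control jejunum, 12.69 to 12.91 in mutant jejunum and 12.25 to 12.63 in control ileum. Apoa4 carried the lower ileal mean: over the other 6 markers the ranges were 12.72 to 12.80, 12.68 to 12.87 and 12.81 to 12.88. Apoa4 was set apart because of its low ileal value. The other 6 did not move alike. Epcam, Cdh1 and Anpep (0.147, not called) were higher in control ileum, whereas Vil1 (-0.065), Krt20 (-0.149) and Fabp2 (-0.089) were slightly lower and not called. Smooth muscle markers were higher in control ileum for 7 of 8 genes, with a median difference of 1.04, and their mean level per array was 8.78 to 9.37 in control jejunum and 9.88 to 10.29 in control ileum. In mutant jejunum 0 of these 8 were called against control jejunum and the range was 8.52 to 9.28. Against control ileum, mutant jejunum had 6 of these 8 called lower (median -1.17). In that comparison 2 of 4 markers of neurons and glia were called lower and 2 of 7 leukocyte markers higher. Over all tested probe sets 2.65% were called there. The part of these markers in the member differences between mutant jejunum and control ileum was not tested. Leukocyte markers did not move alike in control ileum against control jejunum. There 3 of 7 were called lower (Ptprc at -0.825, Cd79a at -0.713 and Csf1r at -1.019). Cd3e (-1.319) and Cd8a (-0.726) were lower and not called, and Itgam (0.413) and Lyz2 (0.403) were higher and not called. Of 4 markers of neurons and glia, 2 neuronal ones were called higher there (Elavl4 at 0.902 and Uchl1 at 0.67). The glial Sox10 (-0.84) and S100b (-0.078) were lower and not called. Of 5 crypt and Paneth markers 1 was called in control ileum against control jejunum (Mmp7, higher at 1.91). Of 8 stroma and vessel markers 1 was called there (Kdr, lower at -0.94). The lower ileal levels of Alpi, and of Akp3 with the limit given above, stood beside these marker values. The part of the smooth muscle and enterocyte markers in those levels was not tested. In mutant jejunum 1 of 4 tested pancreas, fat and liver genes was called lower: Alb, the albumin gene of the liver (-2.45, limma, adjusted p = 0.0159). Of 5 goblet and enteroendocrine markers 1 was called lower: Chgb, a granin of enteroendocrine cells (-0.77, limma, adjusted p = 0.0212). The others were not called: Chga at -0.66, Muc2 at 0.18, Tff3 at 0.07 and Clca1 at 0.32, and the median of that list was 0.07. Alb and Chgb were also lower in control ileum, at -2.54 and -1.03, while Clca1 was called higher there (0.485). The difference of Slc34a2 between mutant and control jejunum stood beside these mixed values and beside muscle markers of which none were called in that comparison. The part of these markers in it was not tested. Of the 5 markers of distal enterocytes, the bile acid carriers Fabp6, Slc10a2, Slc51a and Slc51b were called higher in mutant jejunum and in control ileum, with medians over the list of 2.34 and 2.22. Of the 5 proximal ones, 2 were lower in mutant jejunum (lactase, Lct, and the folate carrier Slc46a1) and 4 in control ileum.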

How the data were processed

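Total RNA was purified on RNeasy columns and labelled with the Affymetrix one-cycle procedure, per the labels' protocols. The deposited intensity values are linear, 1 per probe set and array, and were made by the authors with GCOS, per the submitters' processing notes; the sources used here do not give its version or scaling. Groups come from the sample titles, and the 9 mice are separate animals per the design text. The 64 array controls among 45101 probe sets were dropped. Intensities were quantile-normalized as log2(intensity + 16), since the arrays were not on a common scale; this hides any shift common to all transcripts.

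Testing was limited to the 29307 probe sets above 4.95, the 40th percentile of the normalized values, on 3 or more of the 9 arrays. The group differences were fitted in limma 3.58.1 (R 4.3.3) over all 9 arrays with an intensity trend in eBayes, two-sided, with Benjamini-Hochberg adjustment over all tested probe sets and a threshold of 0.05. All adjusted p-values come from this limma model or its alternatives. With 3 arrays a group, 0.10 is the smallest p that an exact permutation test allows, so none was used. On simulated data of the mutant comparison with 29307 probe sets, 16%, 66%, 92% and 100% of differences of 0.5, 1, 2 and 3 were recovered, with 5 false calls. The simulated noise was normal, independent between probe sets and equal in all groups. It held no outlying array such as mutant jejunum array 3, so recovery on the real arrays may be lower. The number of arrays limits the precision.

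Gene names come from the array's annotation table, in which 34945 probe sets have 1 gene, 932 several and 9160 none; 34741 matched the RefSeq gene table of GRCm38.p6 by Entrez identifier, and no symbol changed. The array data name no genome build, so positions are given for the RefSeq promoter windows alone. The text names every member and the 3 genes most like each called member. From the lists of phosphate handling and of phosphatase regulators it names each gene whose brightest tested probe set was called. Other list genes are named as examples of a role. Cell type markers are named in part, and called ones such as those of smooth muscle are given as counts. Members, gene lists, scaling and tests were chosen with earlier results of these data known, and the rise of Slc34a2 in the mutant was among those results. The alternatives were other scalings, pseudocounts and filters, no trend, array weights, a fit of the compared groups alone, a replicate block and leaving out each array.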

Additional observations from a re-analysis of the deposited data

How the results depend on the processing

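Over 20 alternatives, 588 member differences were recomputed and 547 kept their direction and their side of the threshold, while 3 lost a call, 9 gained one and 29 turned sign, of which 0 were called either way. Another 1431 were recomputed for called differences of other list genes and of the genes most like each called member. Of these, 1190 kept direction and call, 234 lost the call and 7 turned sign. In mutant jejunum against control jejunum, 1044 probe sets were called, 659 with unscaled arrays, 1998 with array weights and 400 to 1007 with 1 array left out. The member count of 1 there became 2 with the replicate block and ran from 1 to 2 with 1 array left out. In control ileum against control jejunum, 4752 were called, 10632 with unscaled arrays and 2862 to 5954 with 1 array left out, and the member count of 3 became 6 with unscaled arrays and ran from 2 to 3. In mutant jejunum against control ileum, 778 were called, 8497 with unscaled arrays, 1184 with median-centred arrays, 1680 with array weights, 332 in a fit of these groups alone and 199 to 1049 with 1 array left out, and the member count of 0 became 2 with unscaled arrays. Numbers shared between groups were taken only to name the samples, since the mice are separate. The correlations of same-numbered deviations ran from -0.073 to 0.165. Arrays with different numbers were not compared, so these values cannot decide whether a number stands for a shared batch. With the replicate block 941, 4585 and 677 probe sets were called in the 3 comparisons. The signs that turned belong to small differences. In control ileum against control jejunum, Slc34a1 became 0.054 with median-centred arrays, 0.005 with a pseudocount of 1 and 0.031 with array weights; with unscaled arrays Slc20a2 (1451768_a_at) became -0.35, Alpl -0.20, Ezr -0.16, Hnf4a -0.16, Epcam -0.059, Cdh1 -0.14, Ginm1 -0.062 and Atp6v0a2 -0.12. In mutant jejunum against control ileum, unscaled arrays gave 0.48 for Slc34a2, 0.38 for Slc20a2 (1434235_at), 0.28 for Alpl and 0.11 for Anpep, median-centred arrays gave 0.17 for Slc34a2 and 0.072 for Slc20a2 (1434235_at), array weights gave 0.35 for Slc34a2 and 0.019 for Alpl, and trimmed mean scaling gave -0.027 for Slc20a2 (1451768_a_at). Relative to the unscaled median of all probe sets (-0.40 and 0.41 in these comparisons), the values on unscaled arrays had the sign first reported for each of these except Slc34a2 (0.07); relative to it Slc34a1 in the first (0.10) and Slc20a1 (1446441_at) in the second (-0.05) had the opposite sign. With 1 array left out, mutant jejunum against control jejunum ran from -0.017 to 0.38 for Slc34a1, from -0.188 to 0.018 for Slc20a1 (1446441_at) and from -0.026 to 0.205 for Alpl; control ileum against control jejunum ran from -0.187 to 0.21 for Slc34a1; and mutant jejunum against control ileum ran from -0.541 to 0.376 for Slc34a2, from -0.149 to 0.012 for Slc20a2 (1434235_at), from -0.071 to 0.206 for Slc20a2 (1451768_a_at) and from -0.157 to 0.074 for Alpl. The causes were not tested. Akp3, Slc34a1, Alpl and Slc20a1 (1446441_at) had no value under the filter at the 60th percentile. Probe sets near the filter level carry little signal over background, which limits Slc34a1, Alpl, Akp3 and, in control ileum, Slc37a2.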
